A study of Homo sapiens with 12 samples.

Results

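Distal intergenic RNaseH1 peaks are places where nuclease-dead RNase H1 was found on chromatin outside annotated genes and far from protein-coding and lncRNA genes. A peak of the RNaseH1-D210N list was taken as distal intergenic when it lay on chromosomes 1 to 22, was under 2000 bp wide, and had its summit outside every annotated gene and over 1 Mb from a chromosome end. The summit also had to lie over 10 kb from both ends of every protein-coding and lncRNA gene. This left 6864 of the 54623 peaks in the list (12.6%). Membership rests on position and on the width limit, so neither lying far from genes nor being under 2000 bp wide is a finding. Fold, q and REXO4 overlap did not enter the rule.

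The peaks came from Flag ChIP-seq in U2OS cells, a human osteosarcoma line. The cells carried a tet-on transgene for RNaseH1-D210N, a mutant of RNase H1 that has lost its nuclease activity, and were grown with doxycycline at 1 µg/ml for about 60 h. Another U2OS line carried a tet-on transgene for nuclease-dead REXO4-D386A, was treated in the same way, and gave a list of 1460 peaks that serves here as another readout. The labels describe 12 libraries in 8 groups. Each line had 2 ChIP libraries and 1 input library with doxycycline and as many without it. The labels name no deletion of the cells' own genes in either line. The lists hold 1 value per peak and none per library, and peaks without doxycycline were not analysed here, so no value below has a replicate error. The sources used here do not say which replicates went into a list.

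An R-loop forms when RNA pairs with a strand of DNA and leaves the other strand unpaired. RNase H1 binds such RNA:DNA hybrids through an N-terminal hybrid-binding domain and cuts their RNA strand, and the D210N mutant binds without cutting, so it is used to mark where hybrids lie. Sequence far from genes is not silent: it holds enhancers, which are transcribed into short, unstable RNAs, clusters of small genes read by RNA polymerase III, and repeats.

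MicroRNA hairpins within 1 kb of a distal summit give the few members whose neighbouring RNA has a known mature sequence. The RefSeq sequence table held 14 such hairpins, 12 of them outside the short arm of chromosome 21, beside 13 peaks. Those printed belong to the 3 hairpins that a peak overlapped outside that arm and to MIR193A, whose peak overlapped a REXO4 peak. Sequences are from RefSeq on GRCh38.p14, 5′ to 3′, and capitals mark the seed, bases 2 to 8.
hsa-miR-193a-3p: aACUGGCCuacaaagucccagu
hsa-miR-193a-5p: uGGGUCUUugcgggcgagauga
hsa-miR-4634: cGGCGCGAccggcccgggg
hsa-miR-422a: aCUGGACUuagggucagaaggc
hsa-miR-12124: gAGGAAAUgcagaugcugga
The 15 mature sequences of the 12 hairpins had 15 distinct seeds, so none of these microRNAs shared a seed.

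Signal at distal peaks was given as the fold, the authors' ratio of the summit's fragments to the number expected there, with 1 added to each. The median fold of the 6864 distal peaks was 3.17, with a 95% interval of 3.15 to 3.19, against 3.07 (3.06 to 3.07) for all RNaseH1 peaks. The middle 50% of distal peaks ran from 2.73 to 3.72 and the whole range from 1.35 to 31.3. Peaks within 1 kb of a protein-coding or lncRNA gene end had a median of 3.02, and peaks over 10 kb from any end inside such a gene had a median of 3.15. Intervals here and below cover counting error only, and they treat neighbouring peaks as independent, which they are not.

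Distal peaks rested on fewer fragments than the list as a whole. The median distal summit held 19 fragments where 5.36 were expected, against 23 and 7.14 for all peaks and 69 and 21 at gene ends. Peaks deep inside genes were as shallow as distal ones, with 18 fragments over 5.36 expected. The median distal peak was 312 bp wide, against 365 bp for all peaks and 662 bp at gene ends. It was 360 bp for all peaks on the same chromosome stretches and under the same width limit. A q of 1e-05 or less was reached by 2020 distal peaks (29.4%), against a background of 45% of all RNaseH1 peaks. Of the distal peaks, 245 (3.57%) had a fold of 5 or more, close to the background of 3.01%. A fold of 10 or more was reached by 38 distal peaks (0.554%), against a background of 0.364%.

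Fold was highest at low expected pileup in every position class, so classes were also set side by side within 5 bins of expected pileup. In the lowest bin, which held 35.8% of distal peaks and 3.54% of gene-end peaks, the median fold was 3.59 (3.53 to 3.68) for distal peaks, 3.62 (3.50 to 3.68) at gene ends and 3.55 (3.53 to 3.62) deep inside genes. In the next bin the medians were 3.12, 3.12 and 3.11 in the same order of classes. The intervals of distal and gene-end peaks overlapped in the 3 lowest bins. The list holds called peaks only, and a call at low expected pileup needs a high fold. Likeness of the medians in the low bins is therefore set in part by the call. In the fourth bin the median was 2.79 (2.73 to 2.86) for distal peaks against 3.07 (3.04 to 3.10) at gene ends, and in the highest it was 2.56 (2.37 to 2.76) against 3.0 (2.98 to 3.01).

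The members were sorted by what the annotation places within 1 kb of the summit. Most, 6455 peaks, had no annotated gene of any class there, and 208 had only a pseudogene. The rest lay beside tRNA genes (74 peaks), genes of the snRNA class (34), other small RNA genes (28), 5S rRNA genes (10), or on the short arm of chromosome 21 below 9 Mb, which carries ribosomal DNA (55). This sorting was chosen after values of the list had been seen, so the folds of the groups are a description.

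**Figure D1:**
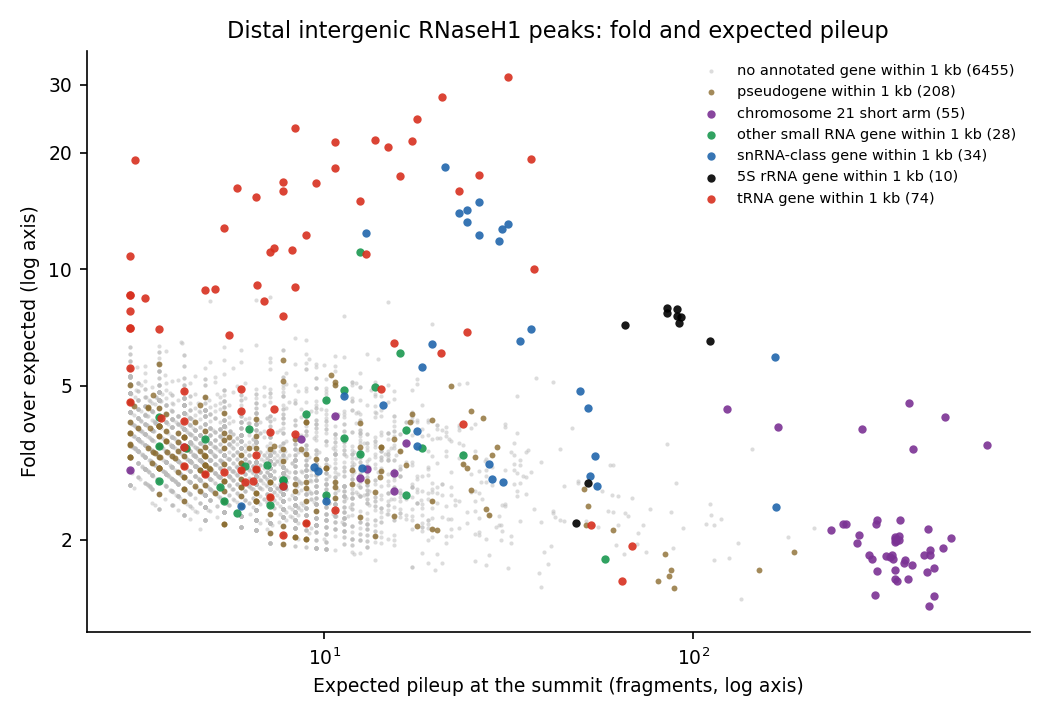
Each point is 1 of the 6864 distal intergenic peaks, with expected pileup at the summit in fragments on the x axis and fold over expected on the y axis, both logarithmic. The points above a fold of 10 are the 27 tRNA, 10 snRNA-class and 1 other small RNA gene peaks, the 10 all at SNAR-A genes. The short arm of chromosome 21 stands apart at an expected pileup with a median of 351.

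The strongest distal peaks lay beside small RNA genes. All 38 with a fold of 10 or more did: 27 beside tRNA genes, 10 beside genes of the snRNA class and 1 beside the vault RNA gene VTRNA2-1. All 10 of the snRNA class were at SNAR-A genes, which the annotation places in that class. No other peak of the class was above 7.02. Of the 50 distal peaks of highest fold, 36 were tRNA peaks, 10 snRNA-class peaks, 1 a vault RNA peak, and 3 had no annotated gene within 1 kb. Peaks beside a pseudogene had a median fold of 3.16 and a highest of 5.84, much like the 6455 peaks away from any gene, with a median of 3.17 and a highest of 8.47. Among them, 15 peaks beside pseudogenes named as copies of 7SL, 7SK, U, Y or 5S RNA had a median of 3.20 and a highest of 4.40.

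tRNA genes, short genes that RNA polymerase III transcribes from a promoter inside the gene, gave 74 distal peaks with a median fold of 7.68. The strongest was chr11:76235069-76236655 (hg38), with 1019 fragments over 31.5 expected and a fold of 31.3 (29.4 to 33.3), 21 bp from TRP-AGG2-4 and between WNT11 (24.7 kb) and THAP12 (114 kb). It ranked 8 in the whole RNaseH1 list. Next came chr16:14285258-14286566 beside TRT-CGT2-1, with a fold of 27.8 (25.6 to 30.1), 19.1 kb from MRTFB, a coactivator of SRF. On the same chromosome chr16:3175257-3176110 beside TRK-CTT2-5 had a fold of 24.4 (22.2 to 26.7).

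The tRNA neighbours next in order were chr6:27650490-27651215 beside TRV-AAC3-1 (23.1), chr1:161612186-161613162 at 665 bp from TRL-CAA6-1 (21.5) and chr17:19507157-19508690 beside TRW-CCA2-1 (21.5). The others among the 12 highest folds were chr7:149690493-149691637 beside TRC-GCA17-1 (21.3), chr17:31549332-31550620 beside TRT-CGT4-1 (20.7), chr17:68019677-68020531 beside TRR-CCG2-1 (19.3), chr6:27795454-27796278 beside TRQ-TTG3-3 (19.2) and chr6:27237136-27237908 beside TRI-AAT5-3 (18.3). The remaining member of the 12 was the SNAR-A5 peak of chromosome 19.

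Folds beside tRNA genes were mostly higher where the summit lay within 150 bp of the gene. The 51 such peaks had a median fold of 10.0, against 3.10 for the 23 peaks with the summit farther away, which reached 21.5. Chromosome 6, which holds the largest human tRNA gene cluster, had 39 of the 74 peaks, with a median of 7.0. None of the 74 overlapped a REXO4 peak (0%, 0 to 4.86), an interval that includes the background of 2.03% of all RNaseH1 peaks. Because a summit inside a gene is excluded by the rule, 35 further peaks with the summit within a tRNA gene, otherwise as far from coding and lncRNA genes, are not members. Their folds ran from 3.09 to 26.6 with a median of 7.82.

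The snaR genes on chromosome 19 encode small RNAs that bind the protein NF90 and are made by RNA polymerase III. The annotation lists them as snRNA, so their peaks are part of the snRNA class counted above. Beside SNAR-A genes lay 11 distal peaks with a median fold of 13.1. In 10 of them the summit was within 150 bp of the gene, and these ran from 11.8 (10.6 to 13.1) at SNAR-A6 to 18.4 (16.6 to 20.2) at SNAR-A5, chr19:50100338-50101289. The other, 892 bp from SNAR-A2, had a fold of 3.02. The 5 peaks beside SNAR-C genes had a median of 3.07 and a highest of 5.60 at SNAR-C2. SNAR-A genes are near-identical copies, so reads of the copies may have been placed among them by the aligner, and the sources used here do not say how this was handled.

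The 5S rRNA genes, which encode the small RNA of the large ribosomal subunit and are also read by RNA polymerase III, stand in a cluster on chromosome 1. Of the 14 distal peaks in the cluster, the 10 within 1 kb of a 5S gene had a median fold of 7.40. Of these 10, 8 peaks, 1 each at 8 gene copies, ran from 6.52 to 7.94. The remaining pair, 525 and 861 bp from RNA5S5, had folds of 2.80 and 2.21. The 4 peaks of the cluster with no annotated gene within 1 kb had folds from 1.78 to 2.81. Expected pileup was high at the 10 peaks beside 5S genes, with a median of 87.8, and the copies are near identical as well. The strongest was chr1:228612079-228613059 at RNA5S2, with 683 fragments over 85.1 expected and a fold of 7.94 (7.36 to 8.56).

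**Figure D2:**
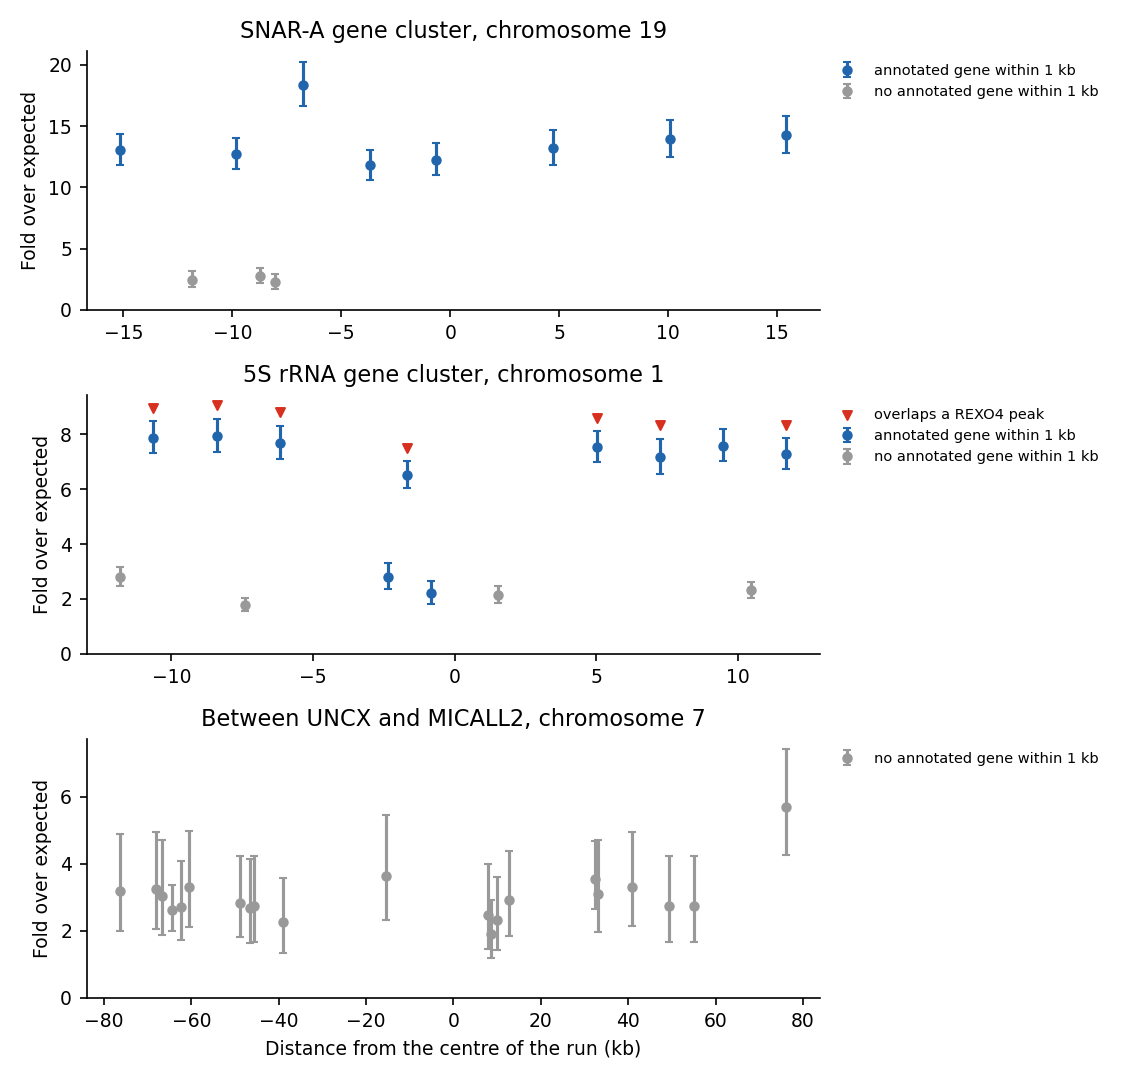
Fold over expected of each distal peak with its 95% counting interval, against the distance of its summit from the centre of the run in kb, for the SNAR-A cluster, the 5S rRNA cluster and the stretch between UNCX and MICALL2. Peaks at SNAR-A genes sit between 11.8 and 18.4 with the gene-free peaks among them at 2.26 to 2.77, and 7 of the 5S peaks carry the mark of a REXO4 overlap.

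The 28 peaks beside other small RNA genes had a median fold of 3.39, and 2 of them reached 5. VTRNA2-1, a vault RNA gene, had chr5:136080151-136080992 at 46 bp with a fold of 11.1 (9.41 to 13), between TGFBI and SMAD5. RNY5, which encodes a Y RNA bound by the Ro60 protein, had a peak at 352 bp with a fold of 6.09 (4.98 to 7.38). Among the snRNA class, RNU1-1, a gene for U1 snRNA of the spliceosome, had a peak at 22 bp with a fold of 6.39 (5.35 to 7.58). Apart from SNAR-A genes, the highest folds of that class were on chromosome 17. They were 7.02 (6.20 to 7.93) at LOC124904144 and 6.53 (5.71 to 7.43) at LOC124904145. The 9 snRNA-class peaks of chromosome 17 had a median of 4.38.

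Among the microRNA hairpins with a sequence, no neighbouring peak reached a fold of 5. The highest was 4.97 (3.90 to 6.24), 374 bp from MIR6077 and 86 bp from RNVU1-2, which is annotated as a pseudogene. The peak upstream of MIR193A, chr17:31558672-31559698, ended 298 bp before the hairpin and had a fold of 2.60 (1.91 to 3.47). The REXO4 peak that overlapped it had a fold of 2.13, with its summit 327 bp away. The peak over MIR4634, chr5:174751027-174752039, had a fold of 3.85 (3.0 to 4.87). It lay 20.3 kb from MSX2, a homeobox gene of bone and craniofacial development. The peak at MIR422A had a fold of 1.79 and that over MIR12124 of 3.10. A peak 789 bp from MIR124-3, a microRNA gene of neurons, had a fold of 3.33 (2.44 to 4.45) and overlapped a REXO4 peak.

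On the short arm of chromosome 21 the 55 peaks had many fragments and low folds. Their median expected pileup was 351 fragments, their median fold 2.01 and their highest 4.50. By q they were among the strongest, with 27 of the 100 lowest q. The lowest q of all distal peaks after the 12 of highest fold was that of chr21:8402036-8402965, 396 bp from the 45S gene RNA45SN3, with 1998 fragments over 480 expected and a fold of 4.16 (3.98 to 4.34). Copies of this repeat lie on several chromosomes, so the peak's place on this arm is uncertain.

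Among the 6455 peaks with no annotated gene within 1 kb, the highest folds were modest but well counted. chr22:23913577-23914283 had 68 fragments over 7.14 expected, a fold of 8.47 (6.61 to 10.7), between MIF, a cytokine gene 18.8 kb away, and GSTT2B. chr1:204807116-204807610 had a fold of 8.35 (6.43 to 10.7) and lay 21.3 kb from NFASC, which encodes the adhesion protein neurofascin. chr16:27109595-27110404 had 8.29 (6.16 to 10.9) and was 40.6 kb from C16orf82. Next was chr1:54487583-54489086, with 130 fragments over 14.9 expected and a fold of 8.25 (6.90 to 9.78), between ACOT11 (59.8 kb) and SSBP3 (74.9 kb).

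Of the next ones, some are described here by neighbours picked for their known roles, so the kinds of neighbour are not a finding. Between them in order of fold came chr12:25385777-25386679 with 7.22 (6.11 to 8.47), 89.9 kb from LMNTD1. So did chr7:43838803-43839505 with 6.64 (5.11 to 8.50), 27.5 kb from URGCP-MRPS24, and chr3:45183226-45183916 with 6.50 (4.51 to 9.09), 37.0 kb from CDCP1. chr3:177359727-177360325, with a fold of 7.56 (6.11 to 9.25), was 158 kb from TBL1XR1, a subunit of the NCoR corepressor complex. chr12:54214739-54215191, with 6.55 (5.07 to 8.33), stood between CBX5, which encodes the heterochromatin protein HP1 alpha, at 16 kb and SMUG1, a uracil-DNA glycosylase gene, at 26.0 kb. chr12:65744134-65744676, with 6.44 (4.47 to 9.02), was 80.1 kb from HMGA2, a gene for a DNA-bending chromatin protein. chr12:13255741-13256160, with 6.36 (4.71 to 8.41), was 36.0 kb from EMP1, and chr4:176901183-176901539, with 6.34 (4.29 to 9.07), was 108 kb from VEGFC, a growth factor gene. Each neighbour given is the nearest protein-coding gene on its side of the peak, lncRNA genes and pseudogenes can lie closer, and no target is implied.

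Distal intergenic sequence, counted by the same rule, covered 963 Mb, or 34.0% of the chromosome positions considered, and held 13.7% of the peaks there. This is 7.13 peaks per Mb (6.96 to 7.30), against 19.5 per Mb for intergenic sequence within 10 kb of a gene end, 122 per Mb at gene ends, 11.6 per Mb deep inside genes and 17.6 per Mb in all. The count fell steadily with the distance to the nearest protein-coding or lncRNA gene end. It was 14.4 per Mb (13.8 to 15) at 10 to 20 kb, 10.4 at 20 to 50 kb, 6.07 at 50 to 100 kb, 3.73 at 100 to 200 kb, 3.17 (2.79 to 3.58) at 200 to 500 kb and 0.240 (0.171 to 0.328) beyond 500 kb.

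Assembly gaps and centromeres were not removed, since no genome sequence was used here, and how much of each distance bin they take up was not measured. The 163 Mb beyond 500 kb held 39 peaks. Within 500 kb the density was 8.53 per Mb (8.33 to 8.73). Fold did not fall with distance: the median was 3.12 (3.10 to 3.16) at 10 to 20 kb and 3.31 (3.29 to 3.48) at 100 to 200 kb. Expected pileup was lower farther out, with medians of 5.80 and 4.17 in these same bins, and what part it has in the folds was not tested. Leaving aside the short arm of chromosome 21, no peak beyond 100 kb lay beside a small RNA gene, whereas 59 of the 2369 at 10 to 20 kb did.

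Farthest out were members on chromosomes 1, 7 and 3. chr1:125119787-125120061 and chr1:125118005-125118333 lay 3657 and 3655 kb from the nearest coding or lncRNA gene, with folds of 3.21 (1.97 to 4.98) and 3.87 (2.41 to 5.94). chr7:60956963-60957454 was 2392 kb away, with a fold of 2.36 (1.36 to 3.85), and chr3:90303776-90304042 was 822 kb away, with 3.30 (2.03 to 5.11). The peaks on chromosomes 1 and 7 lay in stretches of 21.7 and 3.12 Mb without an annotated gene. How reliably reads are placed there was not tested. At the other end of the rule, the members nearest to the 10 kb limit were chr2:120476245-120476565, 10003 bp from LINC01101 with a fold of 2.52, and chr5:141691997-141692533, 10005 bp from ARAP3 with 3.82. Just outside it were chr1:41495986-41496680, 9998 bp from HIVEP3 with 3.03, and chr19:4080115-4080481, 9996 bp from MAP2K2 with 2.88.

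**Figure D3:**
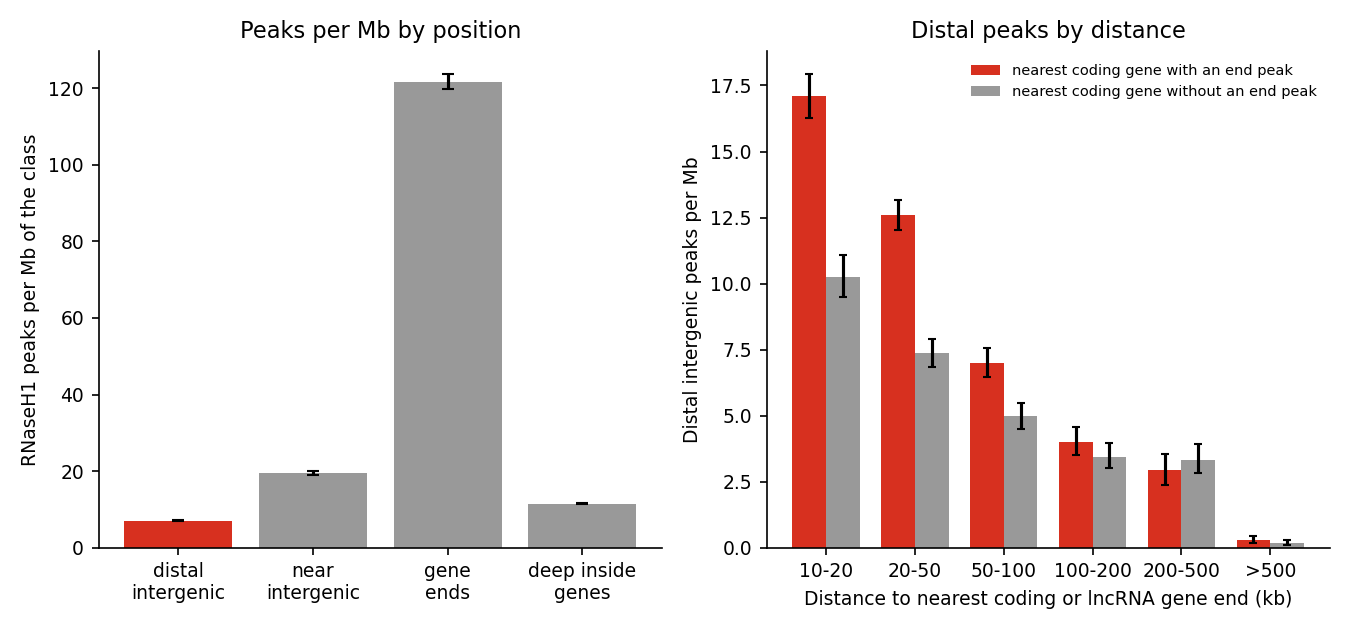
The left panel shows RNaseH1 peaks per Mb of each position class, and the right panel shows distal intergenic peaks per Mb by distance to the nearest protein-coding or lncRNA gene end, for sequence whose nearest protein-coding gene has or lacks an RNaseH1 peak at an end. Bars are counts over length with 95% Poisson intervals, and the right panel falls from 17.1 and 10.3 per Mb at 10 to 20 kb to 0.292 and 0.195 beyond 500 kb.

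Up to 100 kb from the nearest protein-coding or lncRNA gene end, distal peaks were more frequent where the nearest protein-coding gene carried an RNaseH1 peak at an end. The gene that sets the distance need not be that protein-coding gene, which can lie farther away. For 4631 of the 6864 distal peaks (67.5%, 66.3 to 68.6), the nearest protein-coding gene had an RNaseH1 peak within 1 kb of an end, near the background of 68.2% of all 18973 protein-coding genes. Genes do not share intergenic sequence equally, however, and of positions taken every 1 kb through distal intergenic sequence 53.6% had such a gene nearest. Per length, distal peaks numbered 8.97 per Mb (8.71 to 9.23) where the nearest coding gene had an end peak and 5.00 per Mb (4.8 to 5.21) where it had none. By distance to the nearest protein-coding or lncRNA gene end, the difference was widest at 10 to 20 kb, with 17.1 (16.3 to 17.9) against 10.3 (9.50 to 11.1) per Mb. At 50 to 100 kb it was 7.0 against 4.97 per Mb. At 100 to 200 kb the intervals overlapped, with 4.02 (3.53 to 4.56) against 3.46 (3.01 to 3.95), and at 200 to 500 kb they overlapped again, with 2.94 against 3.34 per Mb.

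Chromosomes differed in how densely they held distal peaks. Counting only peaks with no annotated gene within 1 kb, in distal sequence within 500 kb of a gene, chromosome 19 had 20.3 per Mb (17.2 to 23.8), chromosome 17 had 17.1 (15.1 to 19.2) and chromosome 22 had 16.2 (13.6 to 19). Their intervals overlapped each other and lay above those of all other chromosomes, the next being chromosome 16 with 10.4 (9.11 to 11.9). Chromosome 13 with 5.09 (4.40 to 5.85) and chromosome 18 with 5.23 (4.42 to 6.15) were low. Chromosome 21 had 3.65 (2.77 to 4.73), but its value is lowered by the sorting. All peaks of its short arm were left out of the count, leaving 57 of its 114 distal peaks, while the arm's sequence stayed in the length. Its place in the order is therefore not a result. All chromosomes together had 8.02 per Mb. Expected pileup differed as well: its median at these peaks was 7.74 on chromosomes 17 and 19 and 5.65 on chromosome 22, against 4.17 on chromosomes 13 and 18 and 4.76 on chromosome 21. Density fell with the distance to gene ends, and the chromosomes were not matched for this distance. Copy number of the U2OS chromosomes and local read depth were not measured here. The part of each of these was not tested.

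**Figure D4:**
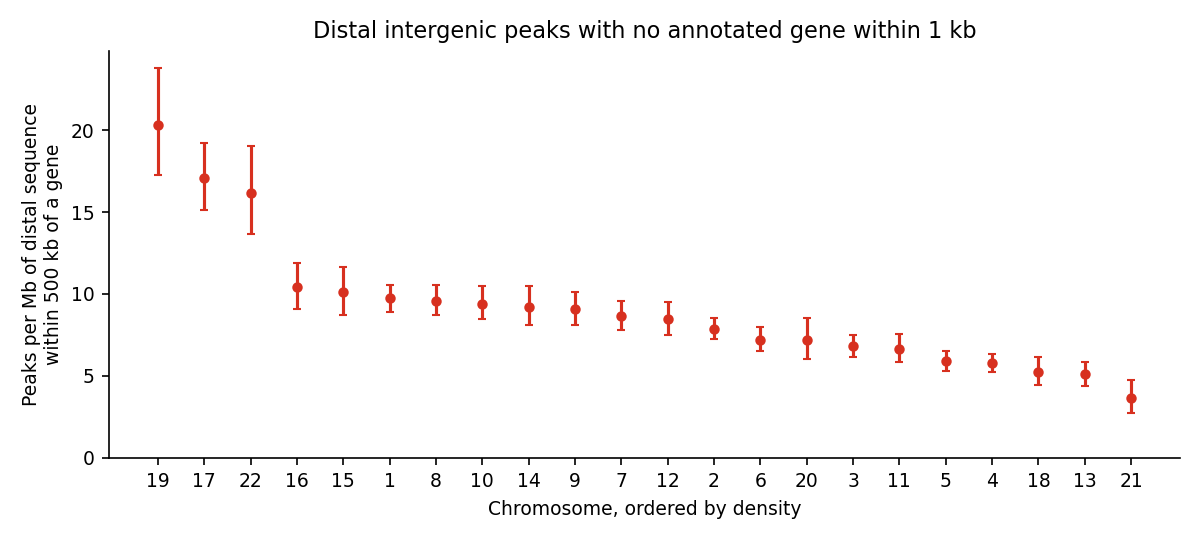
Distal intergenic peaks with no annotated gene within 1 kb, per Mb of distal sequence within 500 kb of a gene, for each of chromosomes 1 to 22 ordered from high to low, with 95% Poisson intervals. Chromosomes 19, 17 and 22 stand above the rest at 16.2 to 20.3 per Mb. Chromosome 21 is plotted lowest at 3.65, but its short-arm peaks are left out of the count while the arm's sequence is not.

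Distal peaks were also described by how they lie among themselves. Another distal peak lay within 50 kb of 3922 of them (57.1%, 56.0 to 58.3) and within 10 kb of 2169 (31.6%). Whether these shares exceed what the density of distal peaks alone gives was not tested. Joining neighbours over gaps of up to 50 kb gave 4286 runs, of which 2942 were lone peaks and 23 held 10 peaks or more, with 330 peaks in all. The longest had 29 peaks on the short arm of chromosome 21, led by the peak at RNA45SN3 named above. Next was a run of 22 peaks at chr6:27486151-27651215, where 14 lay beside tRNA genes and the leading fold was the 23.1 at TRV-AAC3-1. The fourth longest was chr2:91470250-91628757, with 17 peaks and a leading fold of 3.78 (2.45 to 5.59).

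In 13 of the 23 long runs no peak had an annotated gene within 1 kb. The longest of these, and the third longest of all, held 21 peaks in chr7:1260235-1413298 between UNCX, a homeobox gene of the developing spine, and MICALL2. Its folds ran from 1.90 to 5.68 with a median of 2.82, and the strongest peak was the one nearest to MICALL2, at 21.4 kb. A run of 16 peaks, chr2:231640593-231694173, lay between TEX44 and PTMA, which encodes prothymosin alpha, with a leading fold of 5.22 (4.53 to 5.99). A run of 15, chr11:69838890-69949382, lay between the growth factor gene FGF3 and the chloride channel gene ANO1, with a leading fold of 4.65. A run of 14, chr10:110330677-110460636, lay between SMNDC1 and DUSP5, a phosphatase gene that ERK signalling induces, with a leading fold of 4.23. These 4 gene-free runs had median folds of 2.82, 2.59, 2.65 and 2.71 in the order given, all below the 3.17 of distal peaks as a whole. Their median expected pileups were 5.95, 14.3, 7.14 and 9.52, against 5.36 for distal peaks as a whole. What part this has in the lower folds was not tested.

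REXO4 peaks covered few distal RNaseH1 peaks. An overlap of at least 1 bp was found for 58 of 6864 (0.845%, 0.642 to 1.09), against a background of 2.03% of all RNaseH1 peaks and 1.88% of those on the same chromosome stretches and under the same width limit. The share was 4.07% (3.76 to 4.40) at gene ends, 0.643% (0.506 to 0.805) deep inside genes and 0.678% (0.467 to 0.951) in intergenic sequence within 10 kb of a gene end. Of the 58, 26 lay on the short arm of chromosome 21, where 47.3% of the members overlapped, and 7 at 5S rRNA genes. Without that arm the share was 32 of 6809 (0.470%, 0.322 to 0.663), and for peaks with no annotated gene within 1 kb it was 23 of 6455 (0.356%, 0.226 to 0.534). That interval lies below the share at gene ends and overlaps that deep inside genes.

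**Figure D5:**
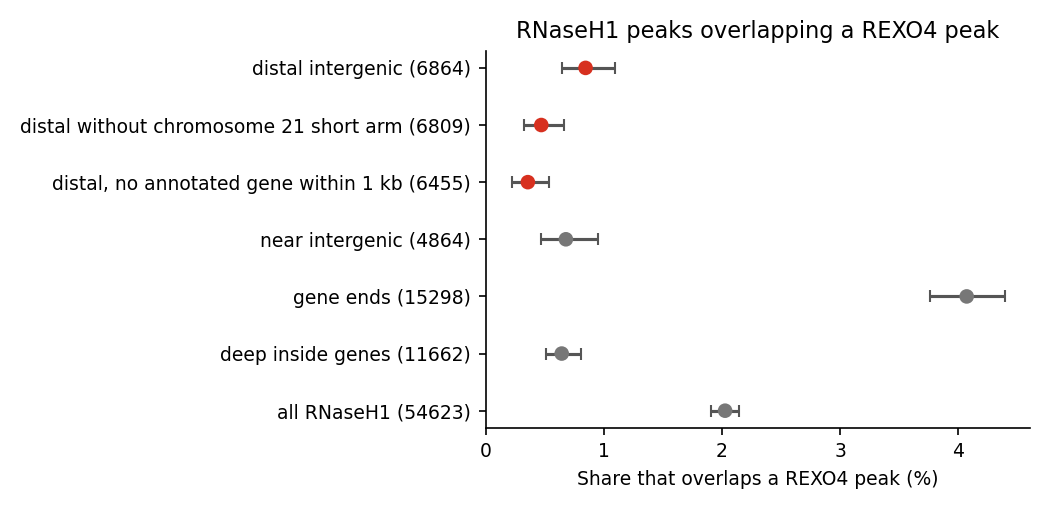
Share of RNaseH1 peaks that overlap a REXO4 peak by at least 1 bp, in percent, with exact binomial 95% intervals and the number of peaks in brackets, for distal intergenic peaks in red and other position classes in grey. The distal share is 0.845% in all and 0.356% away from annotated genes, and gene ends stand apart at 4.07%.

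The share also followed the expected pileup. In the lowest bin of pileup 1 of 2455 distal peaks overlapped a REXO4 peak (0.0407%, 0.00103 to 0.227), against 1.11% (0.407 to 2.39) at gene ends. In the fourth bin it was 1.47% (0.784 to 2.50) of distal peaks against 3.49% (2.95 to 4.09) at gene ends. In the highest bin it was 13.2% (9.44 to 17.7) of distal peaks against 5.65% (5.15 to 6.18) at gene ends, and for distal peaks away from annotated genes 2.38% (0.652 to 5.98). By distance, the bin of 200 to 500 kb stood out with 17 overlaps in 255 peaks (6.67%), of which 16 were on the short arm of chromosome 21.

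REXO4 and RNaseH1 peaks overlapped at 23 sites with no annotated gene within 1 kb. The median gap between their summits was 46 bp, and overlap of narrow peaks itself keeps this gap small. The highest RNaseH1 fold among them was at chr17:26534494-26534784, 463 kb from the nearest coding or lncRNA gene, with 27 fragments over 3.57 expected and a fold of 6.13 (4.11 to 8.81). Its REXO4 peak had a fold of 10.0 (6.86 to 14.1) within the REXO4 list. The site lies in a stretch of 4.28 Mb without an annotated gene, and how reliably reads are placed there was not tested. chr2:231661916-231663328 between TEX44 and PTMA was the deepest, with 200 fragments over 37.5 expected and an RNaseH1 fold of 5.22 (4.53 to 5.99), and a REXO4 fold of 2.13 (1.80 to 2.51). chr12:65262229-65262545 lay between LEMD3, an inner nuclear membrane protein gene, and MSRB3, with an RNaseH1 fold of 4.09 (2.70 to 5.96) and a REXO4 fold of 5.45 (3.25 to 8.65). At the 5S genes the 7 shared peaks had REXO4 folds from 1.81 to 2.43, with a summit gap of 14 to 126 bp.

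Genes next to distal peaks were also counted by list. Of all protein-coding genes of chromosomes 1 to 22, 3380 were nearest to at least 1 distal peak, a background of 17.8%. The same held for 9 of 19 AP-1 and immediate early genes, 8 of 16 osteoblast and mesenchyme regulators, 6 of 14 matrix genes, 3 of 14 YAP, TEAD and SRF targets and 2 of 17 genes of other tissues. Lists differ in how much distal sequence lies beside their genes. Per length of that sequence, distal peaks numbered 16.4 per Mb (10.4 to 24.6) beside the AP-1 and immediate early genes and 15.5 (8.03 to 27.2) beside matrix genes, against 7.13 for all protein-coding genes. They numbered 6.52 (4.18 to 9.70) beside the osteoblast regulators, 3.54 (1.30 to 7.70) beside the YAP, TEAD and SRF targets and 3.01 (0.365 to 10.9) beside genes of other tissues. The counts are small, and 8 of the 23 peaks of the first list are those beside DUSP5. The values for the immediate early and matrix lists rest on only 1.405 and 0.772 Mb. Density over all distal sequence fell from 14.4 per Mb at 10 to 20 kb from gene ends to 0.240 beyond 500 kb. The lists were not matched for this distance, and its part was not tested.

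Among the immediate early genes, DUSP5 had 8 distal peaks nearest to it, 19 to 94.2 kb away, with a highest fold of 2.66 (1.79 to 3.83). MYC, a transcription factor gene of growth control, had 5, with a highest fold of 3.30 (2.00 to 5.18), and FOS, an AP-1 subunit gene, had 2, the stronger at 19.7 kb with a fold of 4.77 (3.72 to 6.01). DUSP6, another ERK phosphatase gene, had 1 at 147 kb with a fold of 5.55 (3.53 to 8.35). Each of the 9 genes of this list with a distal peak had a peak at an end, as did 18 of all 19 on the list. The background was 68.2% of all protein-coding genes. An end peak was also found for 13 of 14 YAP, TEAD and SRF targets and 12 of 16 osteoblast and mesenchyme regulators. For matrix genes it was 6 of 14, and for genes of other tissues 4 of 17. Among regulators of bone and cartilage, SOX9 had 5 distal peaks out to 872 kb with a highest fold of 3.48 (2.04 to 5.59), TWIST2 had 5, MSX2 had 4 and RUNX2, the main osteoblast factor, had 4 with a highest fold of 3.07 (1.74 to 5.10). RUNX2 had no RNaseH1 peak at an end. Among matrix genes, COL5A1 had 5 distal peaks with a highest fold of 3.38 (2.1 to 5.19), and COL5A1, COL3A1, TNC, COL6A3 and SPARC had none at an end, whereas FN1 had 1 distal peak of 4.29 (2.56 to 6.80) and an end peak of 4.32.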

How the data were processed

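The labels describe 12 libraries, and the deposited data used here were a peak list per protein. Tools named in the submitters' processing notes were MACS2 2.1.0.20150731, HISAT2 2.2.1, Trim Galore 0.6.10, deepTools 3.5.1, SAMtools 1.17 and Cufflinks, and the build was hg38. For peak calling, the sources used here do not give the control, the pooling of replicates or the threshold, and the largest q in the RNaseH1 list was 0.198. Each peak's fold (a ratio), −log10 q and −log10 p are the authors' deposited values. Folds were compared within a list only. Summit offsets were used as deposited, and peak scores were not used.

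Fragments and expected pileup were recovered from fold and p, with a tolerance of 0.05 fragments, for 54623 of 54623 RNaseH1 and 1459 of 1460 REXO4 peaks, assuming MACS2 adds 1 to each. Genes came from a RefSeq table on GRCh38.p14, with 58961 of 59792 genes kept. It shares chromosome coordinates with hg38. Intervals are exact Poisson for folds and densities, exact binomial for shares and order-statistic for medians, all 95%. Peaks have no replicate values, so no test was run and no p-value is given. A gene's end had a peak when one lay within 1 kb of either boundary. The members and gene lists were chosen with earlier results of these data known.

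Peaks were named by a rule: the 12 highest folds, the 6 lowest q after those, the 8 REXO4 overlaps of highest fold, the 4 farthest from genes, the longest 4 runs and the 4 around the 10 kb limit. Some of these are not reported here, and others, among them those without a nearby gene, were added after their values were seen. The recovery and the position rule were checked on simulated peaks and positions. Alternatives changed the distance, q, width, overlap and gene windows. Sequence content was not analysed. All scripts ran in Python 3.11.15, with pandas 2.3.3, NumPy 2.4.6, matplotlib 3.10.9 and SciPy 1.17.1.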

Additional observations from a re-analysis of the deposited data

How the results depend on the processing

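Of 64 alternative values, 33 stayed within the 95% interval of the value reported (for the number of peaks, within 1.5 times) and 31 moved out of it. The number of distal peaks, 6864, became 4495 at 20 kb from gene ends, 1821 at 50 kb and 2020 at a q of 1e-05 or less. The share that overlaps a REXO4 peak, 0.845%, became 1.43% at 50 kb, 2.33% at the stricter q, and 0.328% at 10 kb from genes of every class. It was 0.470% without the short arm of chromosome 21 and 0.356% for peaks with no annotated gene within 1 kb, both added after seeing the data. The median fold, 3.17, became 3.20 at 20 kb, 3.28 at 50 kb, 3.20 at a q of 0.05 or less and 3.97 at the stricter q. The median expected pileup, 5.36, became 4.91 at 20 kb, 4.61 at 50 kb, 6.55 at the stricter q and 4.94 at 10 kb from genes of every class. Peaks per Mb, 7.13, became 8.33 at 5 kb, 5.63 at 20 kb, 3.36 at 50 kb, 6.94 at a q of 0.05 or less and 2.1 at the stricter q. It was 8.53 for sequence within 500 kb of a gene, added after seeing the data. The share with a neighbour within 50 kb, 57.1%, became 60.9% at 5 kb, 52.3% at 20 kb, 43.5% at 50 kb and 36.7% at the stricter q. It was 31.6% for neighbours within 10 kb, and 55.1% among peaks with no annotated gene within 1 kb, added after seeing the data. The share whose nearest coding gene had an end peak, 67.5%, became 65.2% at 20 kb, 56.9% at 50 kb and 73.6% for a gene end window of 2500 bp. The cause of these moves was not tested beyond what each alternative leaves out by construction.

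No paired analysis was possible because the lists hold no value per replicate, and none can be left out in turn. Tests on sequence content were not run. Low counts limit single peaks: the median distal fold rests on 19 fragments, and nearby peaks of similar fold have overlapping intervals. Repeated genes and assembly gaps limit what position and density mean.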
